A study of Mus musculus with 2 samples.

Results

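The astroglial marker genes examined here were *Gfap*, *Aqp4*, *Fabp7*, *Slc1a3*, *Aldh1l1*, *S100b*, *Gpm6b* and *Apod*, 8 of the 31053 genes counted in cultured primary mouse brain pericytes (PCs). All 8 symbols were found and were read in every cell that had over 1000 genes and a mitochondrial share of UMIs below 20%. The genes were chosen by their UMI levels in these same libraries, among them the ratio of *Apod* between the passages, so their levels are a description and carry no test. The cells came from wild type female C57BL/6N mice aged 6 to 8 weeks, with 6 brains pooled for an isolation, papain digestion, removal of myelin and growth on collagen-coated plates, first in endothelial growth medium and then in Pericyte Medium. The methods name no sort of these cultures by a surface protein, and state that PC identity was checked by expression of PDGFRβ. One droplet library was made at passage 5 (PC5) and 1 at passage 20 (PC20), and the labels give neither culture a transgene or a treatment. The paper's methods give each passage its own isolation whereas the deposited design text speaks of 1, so passage, isolation and library cannot be told apart in any comparison between them. Freshly isolated adult PCs and embryonic PCs, which the study also used, are not analysed here.

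Astrocytes are the glial cells that wrap synapses and brain vessels, take up glutamate and potassium, and cover pericytes and endothelium with their end-feet. Radial glia, their developmental relatives, share several of their genes. No single gene marks an astrocyte: *Gfap*, *Aqp4* and *S100b* are common stains, *Slc1a3* and *Aldh1l1* label most astrocytes, and *Fabp7*, *Gpm6b* and *Apod* are also used by other cells, *Apod* among them by fibroblasts of the meninges and vessels.

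The PC5 library kept 9950 of 10629 cell barcodes with a median of 21700 UMIs (unique molecular identifiers, each tagging 1 captured RNA molecule). The PC20 library kept 4749 of 4884 barcodes with a median of 33424 UMIs. Because PC20 cells were deeper, shares of cells with a UMI were also counted after each cell had been thinned at random to 10500 UMIs, which left 8847 PC5 and 4474 PC20 cells. The kept cells of the libraries shared 20 barcodes. Of the labelled cell type, *Pdgfrb*, the PDGF-B receptor of mural cells, stood at 44.6 CPM in PC5 and 5.43 in PC20, whereas *Abcc9* had 1 UMI in each library and *Kcnj8* 13 and 0. *Anpep*, also a pericyte marker of the paper, went the other way, at 1.93 CPM in PC5 and 3.00 in PC20. Counts over the whole pericyte list are given below. Among 10 genes of lineages that should be absent from such cultures, the share of cells with a UMI reached 0.653% in PC5 and 3.43% in PC20, both for *Pou5f1*, and 0.141% and 0.379% without it. In thinned cells these limits were 0.283% and 1.07% with *Pou5f1* and 0.0678% and 0.0671% without it. Intervals are at the 95% level, exact, and cover counting error in these libraries only.

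The members are protein-coding genes, and in GENCODE M21 on GRCm38, the assembly of the deposited counts (mm10), they lie apart from one another. *Gfap* spans chr11:102887336-102900912 on the minus strand, *Fabp7* chr10:57784881-57788450 on the plus strand and *Apod* chr16:31296192-31314808 on the minus strand. *Gpm6b* spans chrX:166238911-166388988 on the plus strand, *Aldh1l1* chr6:90486427-90600203 on the plus strand, *Slc1a3* chr15:8634124-8710764 on the minus strand and *S100b* chr10:76253853-76261159 on the plus strand.

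The promoter sequences of *Gfap* and *Fabp7* are shown because some of the few PC5 cells that held one also held the other, and that of *Apod* because this member was read in most PC5 cells. They run 5′ to 3′ on the gene's strand toward the RefSeq start, from RefSeq on GRCm38.p6. *Gfap* is given at chr11:102897201-102897450 on the minus strand, a stretch that lies in an intron of a longer annotated *Gfap* transcript. *Fabp7* is given at chr10:57784673-57784880 on the plus strand, without the bases that an annotated exon covers, and *Apod* at chr16:31314809-31315058 on the minus strand. Capitals mark CCAAT or its reverse complement ATTGG, the CCAAT box.
Gfap: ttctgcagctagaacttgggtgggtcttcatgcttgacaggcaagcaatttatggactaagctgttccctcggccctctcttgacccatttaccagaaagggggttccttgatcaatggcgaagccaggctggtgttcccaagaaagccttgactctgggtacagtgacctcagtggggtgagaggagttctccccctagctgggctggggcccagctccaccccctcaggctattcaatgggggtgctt
Fabp7: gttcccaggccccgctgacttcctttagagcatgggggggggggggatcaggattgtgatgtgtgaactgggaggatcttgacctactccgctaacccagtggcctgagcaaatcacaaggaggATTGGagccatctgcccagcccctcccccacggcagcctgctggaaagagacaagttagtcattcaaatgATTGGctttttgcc
Apod: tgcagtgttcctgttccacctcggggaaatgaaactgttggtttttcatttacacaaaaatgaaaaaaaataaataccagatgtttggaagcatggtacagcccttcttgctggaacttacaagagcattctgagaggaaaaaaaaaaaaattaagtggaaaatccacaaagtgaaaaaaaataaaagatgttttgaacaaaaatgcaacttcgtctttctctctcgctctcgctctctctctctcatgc
RefSeq promoters were found for 7 of the 8 members. In the 250 bases before the start, CCAAT stood on either strand in 4 of these 7, *Fabp7*, *Slc1a3*, *Aldh1l1* and *S100b*, and in 33.9% of 32851 promoters. The NFI motif TTGGCA was in 1 of 7 (*S100b*) against 12.3% of all promoters on either strand, and the STAT motif TTCNNNGAA was in 1 of 7 (*Slc1a3*) against 7.02%. Neither the SOX motif AACAAT on either strand (9.42% of all promoters) nor TATAAA on the gene's strand (7.59%) was found in the 7 windows. These letters were looked for in the windows alone, and say nothing of binding by a factor.

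The 8 members fell into 3 patterns. *Apod* was abundant across PC5, *Gpm6b*, *Aldh1l1* and *Slc1a3* were read in 6.53% to 13.1% of PC5 cells, mostly at 1 UMI a cell, and *Gfap*, *Aqp4*, *Fabp7* and *S100b* were read in 40 PC5 cells or fewer. In PC20 *Slc1a3* stood at 4.51 CPM and every other member below 0.2 CPM. Here CPM is the UMIs of a gene summed over the kept cells of a library per 1000000 UMIs of those cells. The reads come from the 3′ end of the transcript, so a UMI counts a molecule and the levels are not scaled to transcript length.

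*Apod*, which encodes the secreted lipocalin apolipoprotein D, had 93119 UMIs in PC5 and 15 in PC20, that is 417.5 CPM (414.8 to 420.2) against 0.0785 CPM (0.0439 to 0.129). It ranked 279th of 20589 genes with a UMI in PC5 and was the highest of the members there. Its log2 ratio of CPM, PC5 over PC20, was 12.38 (11.66 to 13.21). A UMI was found in 92.5% of PC5 cells, with up to 225 UMIs in a cell and only 9.91% of the positive cells at 1 UMI, and in 0.232% of PC20 cells. In thinned cells the shares were 85.4% (84.6 to 86.1) and 0.112% (0.0363 to 0.261), the latter below that of *Pou5f1* in PC20. The PC5 cells without an *Apod* UMI were shallower, with a median of 13424 UMIs against 22222 in those with one. Barcodes left out by the filter on genes and mitochondrial UMIs held *Apod* as well, at 536.7 CPM (490.5 to 586.1).

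*Gpm6b*, a membrane glycoprotein of the proteolipid family, had 1947 UMIs in PC5 and 36 in PC20, or 8.73 and 0.188 CPM, a log2 ratio of 5.53 (5.06 to 6.05). *Aldh1l1*, the 10-formyltetrahydrofolate dehydrogenase of folate metabolism, had 1640 and 5 UMIs, or 7.35 and 0.0262 CPM, a log2 ratio of 8.14 (6.91 to 9.76). In thinned cells *Gpm6b* was found in 6.78% of PC5 and 0.179% of PC20 cells, and *Aldh1l1* in 7.56% and 0.0224%. Most positive PC5 cells held 1 UMI of the gene, 78.3% of those with *Gpm6b* and 81.7% of those with *Aldh1l1*. The locus of *Aldh1l1* overlaps the long noncoding RNA gene *Gm45901* on the same strand, so reads of the shared stretch cannot be assigned from these counts.

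*Slc1a3*, the glutamate and aspartate transporter GLAST, was at a like level in both libraries. It had 1156 UMIs in PC5 and 862 in PC20, that is 5.18 CPM (4.89 to 5.49) and 4.51 CPM (4.21 to 4.82), a log2 ratio of 0.20 (0.07 to 0.33). The intervals of its thinned shares overlapped, at 4.13% of PC5 cells (3.72 to 4.56) and 4.56% of PC20 cells (3.97 to 5.21), whereas the unthinned shares were 6.53% and 12.6%. Averaged over cells in place of summed UMIs, the log2 ratio was 0.54. The unannotated transcript *Gm37310* lies within *Slc1a3* on the same strand.

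The remaining members were scarce. *Fabp7*, the brain lipid-binding protein of radial glia, had 132 UMIs in 40 PC5 cells and 0 in PC20. With PC20 set at the floor of 3 UMIs over the library, *Fabp7* was 37.7-fold higher in PC5. The exact interval of its log2 ratio had a lower limit of 4.92. *Gfap*, the astrocytic intermediate filament protein, had 97 UMIs in 20 PC5 cells and 0 in PC20. It was 27.7-fold higher by the same floor, with a lower limit of 4.47 for the log2 ratio. A count of 0 in PC20 allows a level of up to 0.0193 CPM and a UMI in up to 0.078% of cells. *Aqp4*, the water channel of the end-feet, had 28 UMIs in 12 PC5 cells and 1 UMI in PC20, a log2 ratio of 4.58 (1.99 to 9.94). *S100b*, a calcium-binding protein, had 13 UMIs in 13 PC5 cells and 2 UMIs in PC20, a log2 ratio of 2.48 (0.33 to 5.67). The ratios of *Aqp4* and *S100b* used their PC20 counts as read, which lie below the floor set for *Fabp7* and *Gfap*. The 3′ end of *S100b* overlaps *Dip2a* on the opposite strand. By share of cells *Fabp7* (0.402%), *Gfap* (0.201%), *Aqp4* (0.121%) and *S100b* (0.131%) did not exceed *Pou5f1* in PC5 (0.653%), and *Aqp4* and *S100b* did not exceed *Slc17a7* (0.141%). Such a share is by itself not read as expression. *S100b* held 1 UMI in each of its positive cells. *Gfap* reached 25 UMIs in a cell, *Fabp7* 15 and *Aqp4* 7, whereas *Snap25*, the highest of the 10 background genes by this measure, reached 4 in PC5.

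**Figure D1:**
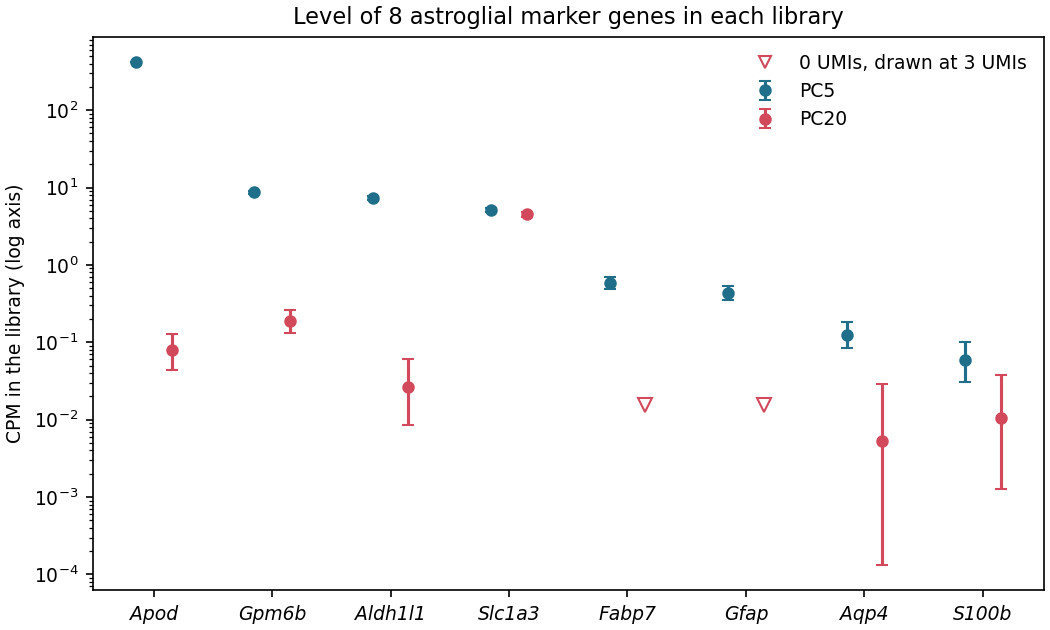
Level of the 8 members in CPM on a log axis in PC5 (blue) and PC20 (red), 1 library each, with exact Poisson intervals; open triangles mark 0 UMIs and are drawn at 3 UMIs. *Slc1a3* lay at a like level in both libraries, and *Apod* lay 12.38 apart on the log2 scale.

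In order of CPM in PC5 the members were *Apod*, *Gpm6b*, *Aldh1l1*, *Slc1a3*, *Fabp7*, *Gfap*, *Aqp4* and *S100b*, and the neighbours whose intervals overlapped were *Fabp7* with *Gfap* and *Aqp4* with *S100b*. In PC20 the order was *Slc1a3*, *Gpm6b* and *Apod*, each apart from the one before, followed by 5 members whose neighbouring intervals overlapped. Of the 8 members, 4 had a UMI in at least 1% of cells of either library and could be compared by size, and 3 of these 4 had a log2 ratio above 1, against 22.3% of the 13539 genes compared. No member was below -1, against 20.0% of all genes. The median log2 ratio of the 4 was 6.83 and that of all genes compared 0.03. In thinned cells 4 members exceeded 1% of cells in PC5 and 1 in PC20, against 37.6% and 36.1% of the genes listed. The members were picked with these ratios in view, so nothing is read from their count.

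The members also differed in how many PC5 cells carried them. The 100 PC5 cells with the most UMIs of a gene, 1% of the culture, held 9.10% of the UMIs of *Apod* and 17.9% of those of *Aldh1l1*. They held 31.0% for *Gpm6b*, 41.4% for *Slc1a3* and, necessarily, 100% for the 4 members found in fewer cells. The 3 cells with the most UMIs of the gene held 56.7% of those of *Gfap*, 60.7% of those of *Aqp4* and 31.8% of those of *Fabp7*.

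**Figure D2:**
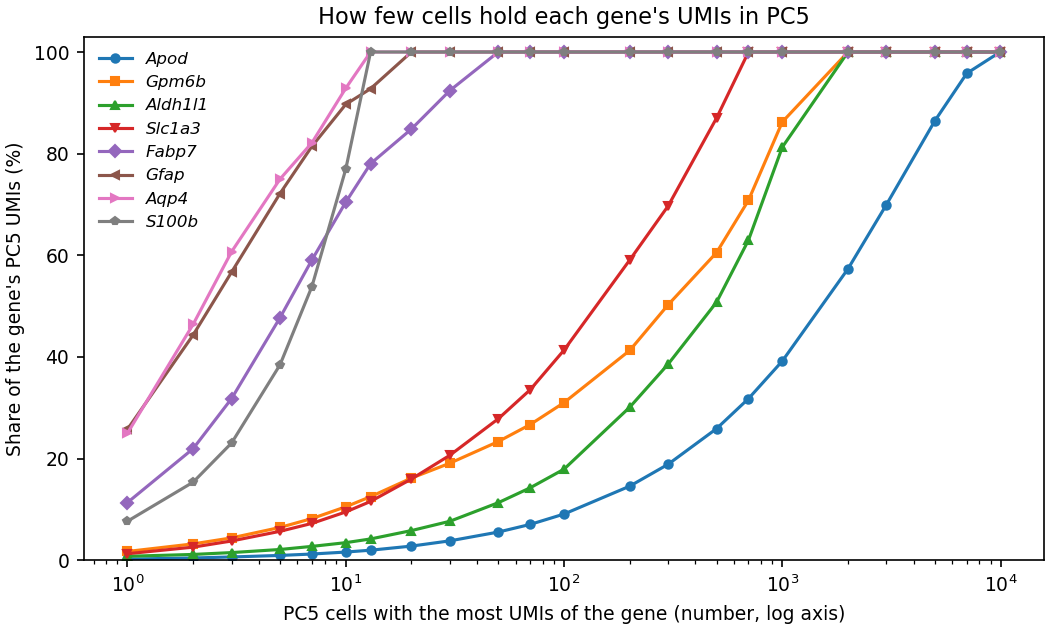
Share of each member's PC5 UMIs (%) held by the cells with the most UMIs of that gene, against the number of such cells on a log axis. The curve of *Apod* rises last, and those of *Gfap*, *Aqp4*, *Fabp7* and *S100b* reach 100% within 40 cells.

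Whether the members marked the same cells was read from the share of cells with a second member among cells with and without the first. Of the 20 PC5 cells with *Gfap*, 9 (45%, 23.1 to 68.5) also had *Fabp7*, against 0.312% of the cells without *Gfap*, and 7 (35%) had *Aqp4*, against 0.0504%. Conversely 9 of the 40 cells with *Fabp7* (22.5%, 10.8 to 38.5) had *Gfap*, against 0.111% of the others. Of the 12 cells with *Aqp4*, all 12 had *Gpm6b*, against 12.6% of the other cells, and 9 (75%) had *Aldh1l1*, against 13.1%. *Gfap*, *Aqp4* and *Fabp7* were thus found in one another's cells more often than in the rest of PC5, though most *Fabp7* cells had no *Gfap*. Median depth was 17564 UMIs in *Gfap* cells and 10280 in *Aqp4* cells, against 21709 in the cells without the gene in both cases. For *Fabp7* it was 21067 against 21702. These cells were not thinned, and the part of depth in their sharing was not tested. Of the 13 cells with *S100b*, 1 (7.69%, 0.195 to 36.0) had *Gfap*, against 0.191% of the other cells (0.115 to 0.298), and 5 (38.5%, 13.9 to 68.4) had *Slc1a3*, against 6.49% (6.01 to 6.99). The first of these intervals overlapped, and 13 cells are too few to place *S100b* with or apart from *Gfap*.

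*Apod* went the other way for *Aqp4* and *Gfap*. It was found in 5 of the 12 *Aqp4* cells (41.7%, 15.2 to 72.3) against 92.5% of the other PC5 cells, and in 14 of the 20 *Gfap* cells (70%, 45.7 to 88.1) against 92.5%. These cells were not thinned. Median depth was 10280 UMIs in *Aqp4* cells against 21709 without it, and 13424 in cells without *Apod* against 22222 with it. The part of depth in these shares was not tested. With *Slc1a3*, *Apod* was found more often, in 98.3% of *Slc1a3* cells (97.0 to 99.2) against 92.1% of the others. In thinned cells, where depth was equal, *Slc1a3* was likewise found in 4.59% of cells with *Apod* (4.13 to 5.09) and 1.39% of cells without (0.828 to 2.19).

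Among *Slc1a3*, *Gpm6b* and *Aldh1l1*, the first pair had intervals that lay apart at equal depth. In thinned PC5 cells *Gpm6b* was found in 17.5% of cells with *Slc1a3* (13.8 to 21.8) and in 6.32% of cells without (5.81 to 6.86). *Aldh1l1* was found in 10.96% of thinned cells with *Slc1a3* (7.95 to 14.6) and in 7.42% without (6.87 to 7.99), intervals that overlapped. Between *Aldh1l1* and *Gpm6b* they were 9.83% (7.57 to 12.5) and 7.40% (6.84 to 7.98) and overlapped too. Of the 10 pairs with at least 20 positive thinned PC5 cells for each gene, read in both directions, 10 of the ordered shares were higher with the first gene than without it with intervals apart, and 0 were lower. In unthinned cells with members of at least 10 cells, which let in *Gfap*, *Aqp4* and *S100b* and was chosen after seeing the data, 35 ordered shares of 28 pairs were higher and 4 were lower, the 4 being *Apod* with *Gfap* and with *Aqp4* in both directions. Pairs of other genes were not counted in this way, so neither count is read as a trait of the members. In PC20 no pair had enough thinned cells, and *Gpm6b* was found in 8 of the 599 unthinned cells with *Slc1a3* (1.34%, 0.578 to 2.62) and in 0.651% of the cells without (0.429 to 0.945).

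**Figure D3:**
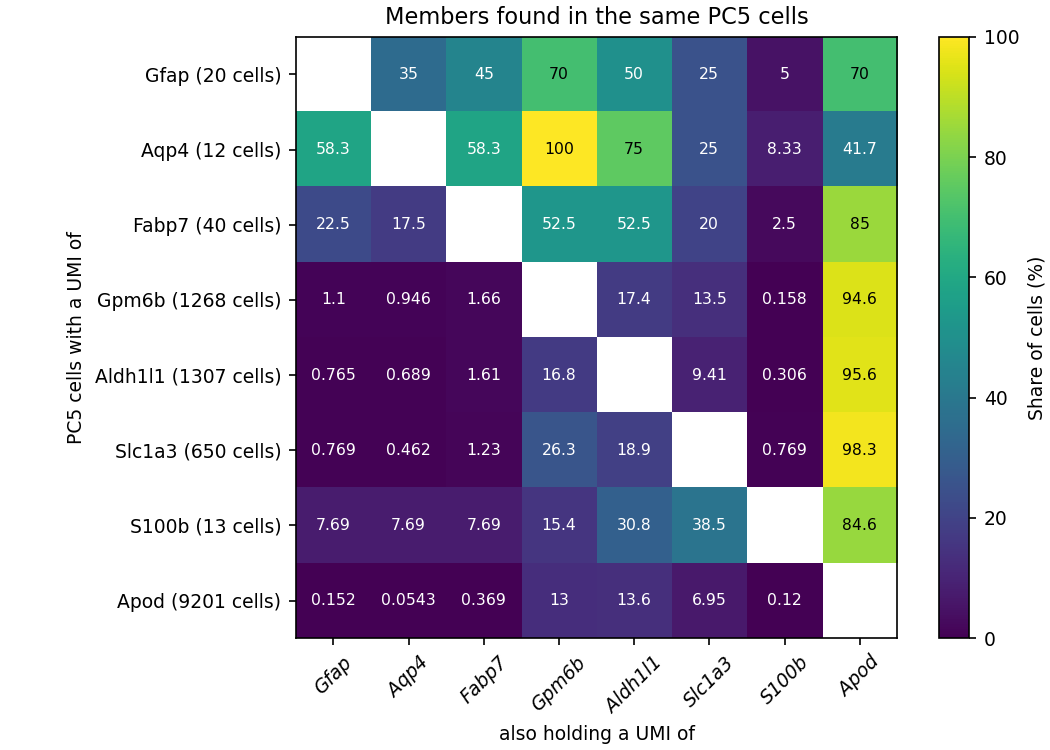
Share (%) of the PC5 cells with a UMI of the row gene that also held a UMI of the column gene, in all kept cells without thinning. *Gfap*, *Aqp4* and *Fabp7* share cells with one another and with *Gpm6b*, while the *Apod* column is lowest in *Aqp4* cells, at 41.7%.

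Counted per cell, 624 PC5 cells had none of the 8 members, 6663 had 1 and 2212 had 2, most of these through *Apod*. Without *Apod*, 72.2% of PC5 cells had none of the other 7 members, 400 cells had 2 and 48 had 3. A single PC5 cell held all 8. In PC20 86.5% of cells had none of the 8 members, 629 had 1, 12 had 2 and 0 had more.

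A rule chosen after these values were seen took the PC5 cells with UMIs of at least 2 of *Gfap*, *Aqp4* and *Fabp7*. It found 13 of 9950 cells (0.131%, 0.0696 to 0.223) in PC5 and 0 of 4749 in PC20, which allows up to 0.078%. The 13 cells held 88.7% of the *Gfap* UMIs of the library, 71.4% of those of *Aqp4* and 54.5% of those of *Fabp7*. Their depth ranged from 6506 to 28555 UMIs with a median of 10840, against 21706 in the other cells, and 5 of them were too shallow for thinning. None was among the 5% deepest cells and none of their barcodes was in PC20. Their median mitochondrial share was 2.71%, against 2.60%. Since 3 members chose these cells, what follows is about genes that the rule did not use.

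*Gpm6b* was in 13 of the 13 cells, with 6 to 34 UMIs a cell, and stood at 1094 CPM (951.2 to 1252) against 7.79 CPM in the other PC5 cells. *Aldh1l1* stood at 202 CPM in them (9 of 13 cells) against 7.18 CPM, with 13 of its 39 UMIs there in 1 cell. *Slc1a3* stood at 77.8 CPM (5 of 13 cells) against 5.12 CPM, with 9 of its 15 UMIs there in 1 cell. *Apod* was lower, at 259 CPM (192 to 342) in 8 of 13 cells against 417.6 CPM in the others. *S100b* had 1 UMI in 1 of the 13 cells. Of the 1947 UMIs of *Gpm6b* in PC5, 10.8% lay in these 13 cells, and of the 1640 of *Aldh1l1* 2.38%, so most molecules of both genes came from outside them.

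Of the 30 other genes of astrocytes and radial glia, 26 had a UMI in the 13 cells, and 18 of these were higher there than in the other PC5 cells with an interval above 0, 3 were lower and 5 had an interval that spanned 0. Of the 10149 genes with a UMI in the 13 cells, 12.8% were higher and 6.04% lower. *Slc1a2*, the glutamate transporter GLT-1, was found in 11 of 13 cells at 191.8 CPM against 0.592 CPM, and *Mlc1*, an end-foot membrane protein, in 10 cells at 150.3 CPM against 0.108. *Sox2*, a transcription factor of neural progenitors and glia, was found in 11 cells at 140 CPM (92.2 to 203.7) against 0.310. *Aldoc*, the brain aldolase, stood at 881 CPM against 9.18, *Glul*, glutamine synthetase, at 819 CPM against 72.5, and *Cst3*, cystatin C, at 5096 CPM against 217. *Gjb6*, *Cldn10*, *Ntsr2* and *Hes5* had no UMI in the 13 cells, which allows up to 19.1 CPM there. In all of PC5 *Ntsr2* and *Hes5* had 0 UMIs, *Gjb6* 23 and *Cldn10* 28, so these zeros say little. *Vim* (2602 against 2575 CPM), *Sox9* (243.7 against 231.6) and *Cd44* (357.7 against 351.3) were at like levels. *Gja1*, the connexin 43 gene, was lower at 57.0 against 131 CPM, as were *Nes*, the intermediate filament nestin of progenitors, at 20.7 against 65.2 CPM and *Tnc*, the matrix protein tenascin C, at 46.7 against 130.4 CPM.

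With *Gfap*, *Aqp4* and *Fabp7* set aside, the genes that 7 or more of the 13 cells held were ranked by ratio over the other PC5 cells. Of the 2595 genes ranked, the largest ratios were those of *Olig1* and *Olig2*. Both are transcription factors of the oligodendrocyte lineage that some astrocytes also use. *Olig1* had 53 of its 71 PC5 UMIs in 12 of the 13 cells, and *Olig2* 18 of its 27 in 9. *A2m*, *Slco1c1*, *Mlc1*, *Ntrk2*, *Mt3*, *Nwd1*, *Hepacam* and *Pou3f3* followed. *Mt3*, a brain metallothionein, reached 4593 CPM against 4.82 CPM and was in 13 of 13 cells. Of the oligodendrocyte list, *Cnp*, a myelin enzyme, stood at 51.8 CPM in 9 of 13 cells against 15.0 CPM, and *Cspg5*, a brain proteoglycan, at 41.5 CPM in 6 cells against 2.29. *Mag*, *Mobp*, *Mog* and *Sox10* had no UMI in the 13 cells, but they had 0 to 2 UMIs in all of PC5. These genes were named after their values were seen.

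By CPM, fibroblast and mural genes went in both directions in the 13 cells. *Col1a1* stood at 192 CPM (135 to 264) against 576 CPM, *Col3a1* at 829.5 CPM against 1159 and *Pdgfra* at 36.3 CPM against 88.6. *Pdgfrb* stood at 20.7 CPM (5.65 to 53.1) against 44.6 and *Tagln* at 192 CPM against 219.5, both with overlapping intervals. *Dcn*, the proteoglycan decorin, was higher at 129.6 CPM (83.9 to 191) against 51.2, but lay in 4 of 13 cells against 36.3% of the others. *Acta2*, smooth muscle actin, was higher at 155.5 CPM (104.9 to 222) against 62.8, in 6 of 13 cells against 40.5%. The cells were uneven in this respect. Of the 13, 7 had 0 to 2 UMIs of *Col1a1* and *Col3a1* together, at a median depth of 9945 UMIs, and 6 had more, at a median depth of 21632. Of the other PC5 cells 4.80% had 0 to 2 such UMIs. The 5 cells of the 13 without an *Apod* UMI were all among those 7, whereas 7.49% of the other PC5 cells lacked *Apod*. Whether any of these 13 droplets held more than 1 cell was not tested.

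**Figure D4:**
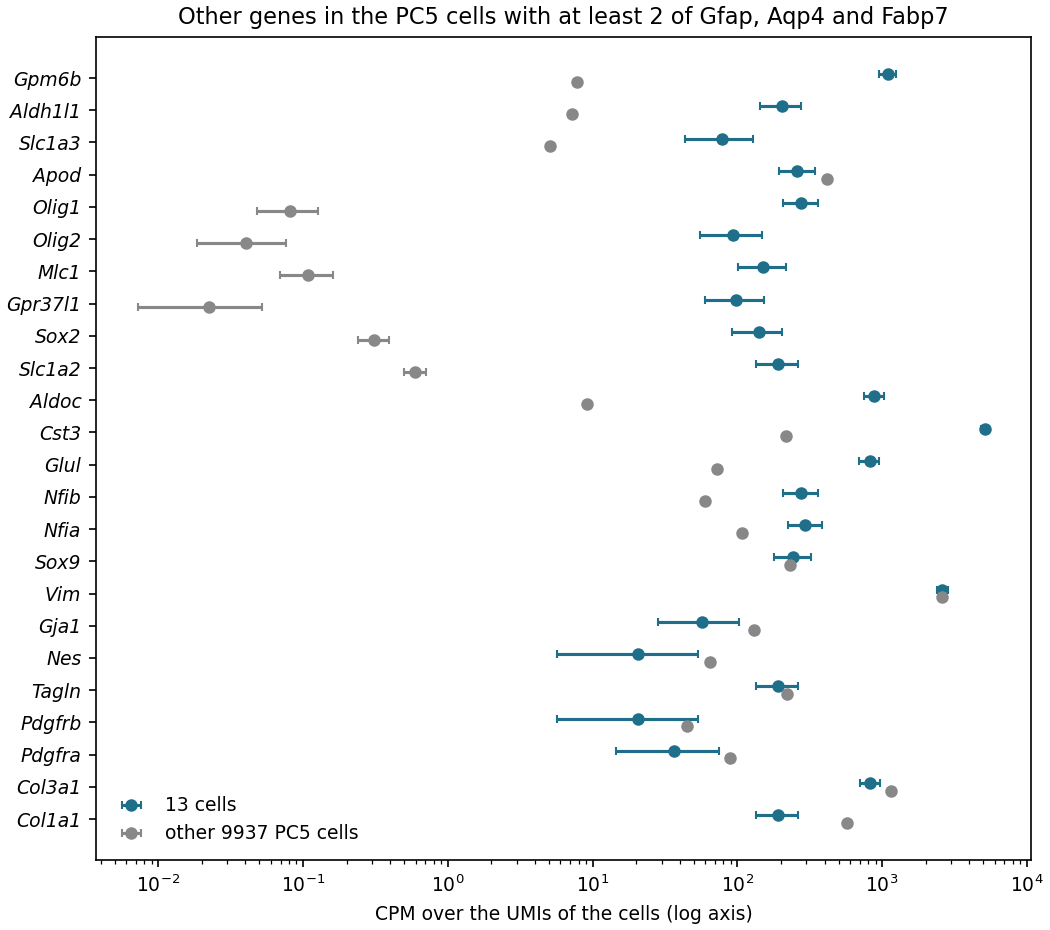
CPM on a log axis of genes that the rule did not use, in the 13 PC5 cells with at least 2 of *Gfap*, *Aqp4* and *Fabp7* (blue) and in the other 9937 PC5 cells (grey), with exact Poisson intervals. *Olig1* to *Slc1a2* lie furthest apart, *Vim* and *Sox9* overlap, and *Apod* and *Col1a1* are lower in the 13 cells.

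Another rule, at least 3 UMIs of *Gfap*, *Aqp4* and *Fabp7* together, took 18 PC5 cells. Not all of the 13 cells were among them. The 18 cells held 90.7% of the *Gfap*, 89.3% of the *Aqp4* and 80.3% of the *Fabp7* UMIs, with *Gpm6b* in 18 of 18 cells and *Olig1* in 14. A further 34 PC5 cells held exactly 1 UMI of the 3 genes together. Their median depth was 21908 UMIs and 33 of 34 had *Col1a1*. *Gpm6b* stood at 52.5 CPM (37.7 to 71.2) against 8.58 in the rest of PC5. *Aldh1l1* stood at 23.0 against 7.30 and *Sox2* at 11.5 against 0.391. These levels came from a part of the 34 cells, 9 with *Gpm6b*, 11 with *Aldh1l1* and 2 with *Sox2*.

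The common members were then set against genes of the cell state in thinned PC5 cells. Cells with *Slc1a3* had *Tagln*, a smooth muscle actin-binding protein, less often than cells without it (42.2%, 37.1 to 47.4, against 58.8%), and *Acta2* in 19.7% against 28.9%. They also had *Mki67* or *Top2a*, genes of dividing cells, less often (21.1%, 17.0 to 25.7, against 36.2%), while *Col1a1* was found in 95.3% and 96.0% and *Col3a1* in 93.7% (90.7 to 96.0) and 97.4%. By mean UMIs a cell *Col3a1* went the other way, at 15.35 with *Slc1a3* and 12.58 without. Cells with *Gpm6b* had *Tagln* in 50.5% against 58.7% and *Mki67* or *Top2a* in 30.2% against 36.0%, and those with *Apod* had *Mki67* or *Top2a* in 34.2% against 43.9%. Cells with *Aldh1l1* had *Mki67* or *Top2a* in 30.9% (27.5 to 34.6) against 36.0% (34.9 to 37.0). Cells with each of the 4 common members thus held UMIs of these division genes less often than cells without. Other genes were not set against the division genes in this way, so this is not read as a trait of the members. Nearly all of these cells held *Col1a1*, as did thinned PC5 cells as a whole (95.9%). In PC20 the cells with *Slc1a3* had *Mki67* or *Top2a* in 50% (42.9 to 57.1) against 57.9% (56.4 to 59.4), intervals that overlapped, and *Col1a1* in 8.82% (5.31 to 13.6) against 3.04% (2.55 to 3.61). There *Col3a1* was found in 66.18% of cells with *Slc1a3* (59.24 to 72.64) against 55.25% (53.74 to 56.75).

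Likeness of pattern was described by Pearson's *r* of log-transformed UMIs per 10000 over the kept cells, which share 1 library and differ in depth. For *Apod* in PC5 (n = 9950 cells) the most alike of 10437 genes included *Selenop* (*r* = 0.44), *Dcn* (0.42), *Matn2* (0.41) and *Trf* (0.39), and *r* with depth was -0.16. None of the other members was among the 5 highest. For *Slc1a3* they included *Sparcl1* (0.32), *Pla2g7* (0.32), *Tgfbi* (0.29), *Trf* (0.28) and *Gas1* (0.26) in PC5, and *Grin2a* (0.26), *Cdo1* (0.25), *Timp3* (0.23) and *Clu* (0.23) in PC20 (n = 4749 cells, 10816 genes), and none of these names is on both lists. *Gpm6b* was the gene most like *Aldh1l1* in PC5, at an *r* of 0.15, and *Mtss1l* was most like *Gpm6b*, at 0.23. The values for *Slc1a3*, *Gpm6b* and *Aldh1l1* are weak in sparse counts and are no finding.

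Of 30 other genes of astrocytes and radial glia, 21 could be compared between the libraries. Of these, 7 had a log2 ratio above 1, 4 below -1 and 10 lay between, with a median of 0.46 against 0.03 over all genes. Of the 13539 genes compared, 22.3% were above 1 and 20.0% below -1. *Plpp3*, a lipid phosphatase, stood at 181 CPM in PC5 and 5.26 in PC20 (log2 ratio 5.11), and *Dio2*, the deiodinase that activates thyroid hormone, at 49.0 and 2.76 CPM (4.15). In the opposite direction *Sox2* stood at 0.430 CPM in PC5 and 66.8 in PC20 (-7.28), *Id4*, an inhibitor of differentiation, at 0.309 and 44.9 CPM (-7.18), *Aldoc* at 9.94 and 94.9 CPM and *Nfib* at 59.6 and 266 CPM (-2.16). *Vim* (2575 and 3909 CPM), *Slc4a4* (143.5 and 228.5 CPM), *Sox9* (231.6 and 205.5 CPM) and *Gja1* (131 and 94.9 CPM) had log2 ratios between -1 and 1. The other astroglial genes did not share 1 direction, and neither did the genes compared as a whole. *Sox2* and *Aldoc*, high in the 13 PC5 cells, were also found in 75.8% and 75.6% of PC20 cells, where *Gfap* and *Fabp7* had no UMI.

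**Figure D5:**
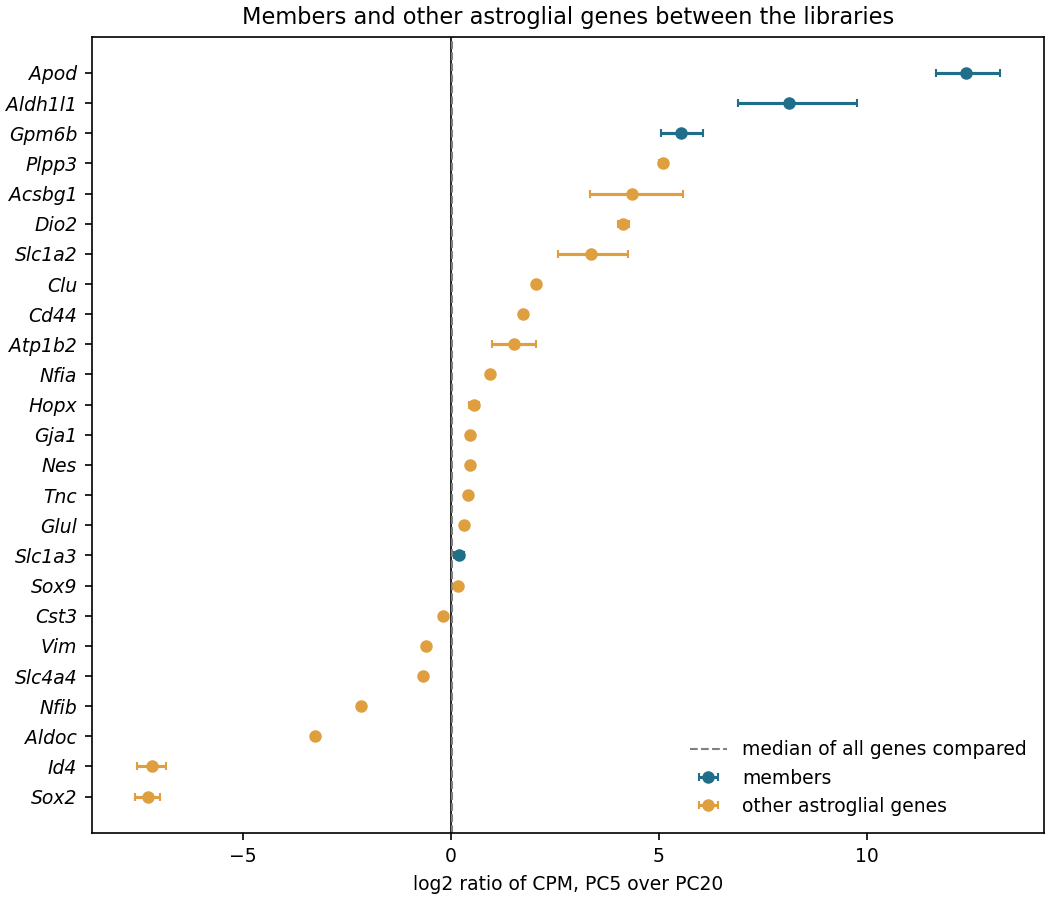
Log2 ratio of CPM, PC5 over PC20, for the 4 members and the 21 other astroglial genes compared, with exact intervals, and the median of all genes compared (dashed, 0.03). *Apod*, *Aldh1l1* and *Gpm6b* lie at the top, *Slc1a3* near 0, and *Sox2* and *Id4* at the bottom.

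Markers of other cell types are given beside the members because they moved between the same libraries. The counts below stand against 22.3% of all genes compared above 1 and 20.0% below -1. The fibroblast and meningeal list had 8 of 10 genes above 1 and 2 below -1 (*Ogn* and *Igfbp2*), and its summed level was 2084 CPM in PC5 and 287 in PC20. The oligodendrocyte list had 3 of 4 compared genes above 1 (*Cnp*, *Cspg5* and *Enpp6*), with *Mobp* at 0 UMIs in both libraries, *Mag* at 1 and 0, and a summed level of 19.5 and 6.92 CPM. The neuronal list had 2 of 2 above 1, *Stmn2* and *Tubb3*, with *Rbfox3* at 2 and 0 UMIs and *Dcx* at 0 and 1, and a summed level of 105.7 and 5.32 CPM. Of the Schwann cell and ensheathing glia list 2 of 3 were above 1 (*Frzb* and *Egr2*) and 1 below -1 (*Erbb3*), with *Foxd3* at 0 in both and a summed level under 30 CPM in PC5 and under 1 CPM in PC20. The pericyte list had 4 of 5 above 1 (65.2 and 10.1 CPM), and *Anpep* lay between -1 and 1, at -0.63. The smooth muscle list had 2 of 3 above 1 (283 and 49.6 CPM). The endothelial list had 2 of 2 (*Cdh5* and *Kdr*, 181.5 and 0.262 CPM, with *Pecam1* at 0.543 and 0.110 CPM). The microglia and leukocyte list had 2 of 2 (*Csf1r* and *Cx3cr1*, 4.09 and 0.801 CPM, with *Cd48* and *Adgre1* at 0 in both). The background list had 1 gene compared, *Pou5f1*, which was below -1. The part of any of these cell types in the members' levels was not tested.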

How the data were processed

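Single-cell libraries of cultured PCs at passage 5 and passage 20, 1 each, were analysed and grouped by passage as labelled. The authors deposited UMI counts per gene and barcode, made with Cell Ranger 5.0 from 3′ libraries mapped to mm10, with barcodes called as cells and no normalization. Of 31053 gene identifiers, 31011 were found in GENCODE M21 (GRCm38).

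The filter on cells followed the paper, with over 1000 genes and a mitochondrial share below 20%. The cells left held 223054273 UMIs in PC5 and 191122251 in PC20. No doublet caller was run and no doublets were removed. UMIs of a gene were summed over kept cells and scaled to CPM, with exact Poisson intervals, log2 ratios with conditional binomial intervals and Clopper-Pearson intervals for shares, all at 95%. In the counts of genes by size, every count below the floor of 3 UMIs per library was set to 3. The ratios given for single genes used the counts as read, and only a 0 was set to that floor. Genes with a UMI in at least 1% of cells of either library were compared by size. Thinning drew 10500 UMIs per cell, set at the 10th percentile of depth and rounded down by steps of 500, and left out 1103 PC5 and 275 PC20 cells that were shallower. No test was made, since each passage has 1 library and cells are not replicates of it.

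The members, the marker lists and the rules were chosen with earlier results of these data known. Named genes are the 8 members, the higher genes of each list and the 5 genes most like a member by *r* over cells. Others, among them the genes of the 13 cells, were named after their values were seen. Of the genes this rule names, 3 are not reported here.

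The alternatives were other filters, cells without *Mki67* or *Top2a*, no thinning or another draw, at least 2 UMIs for detection, other library totals, means over cells and centring on the median gene. The computation was tested on simulated counts with known ratios. Python 3.11.15, numpy 2.4.6, scipy 1.17.1, pandas 2.3.3 and matplotlib 3.10.9 were used.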

Additional observations from a re-analysis of the deposited data

How the results depend on the processing

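The log2 ratios of the 6 members with a UMI in both libraries kept their sign under every alternative that gave a ratio, and 48 of 50 such values moved by less than their counting interval. The exceptions were *Slc1a3* as a mean over cells (0.54) and *Apod* in thinned cells (11.40). *Aqp4* gave no ratio without the 5% deepest cells, in cells without *Mki67* or *Top2a* or in thinned cells. *S100b* gave none in cells without *Mki67* or *Top2a*. The *Aqp4* ratio ranged from 2.78, without the 13 cells with at least 2 of *Gfap*, *Aqp4* and *Fabp7*, to 7.79 as a mean over cells, and that of *S100b* fell to 1.34 in thinned cells. With at least 2 UMIs for detection, 0 members exceeded 1% of PC20 cells in place of 1, since *Slc1a3* came to 0.514%, and in PC5 *Aldh1l1* came to 0.757% and *Gpm6b* to 1.04%. With genes in at least 10% of cells, 18 other astroglial genes were compared and 4 were above 1, in place of 7. The count of ordered pairs sharing cells was 25 without thinning, from 15 pairs, in place of 10 from 10 pairs. It was 35, from 28 pairs, with members of at least 10 unthinned cells. Without thinning *Gfap* and shallow cells entered and every UMI of a cell was counted. The part of each was not tested. Pairs without *Gfap* came apart too, such as *Slc1a3* in 20% of *Fabp7* cells (9.05 to 35.65) against 6.48% (6.00 to 6.98), which overlapped in thinned cells. The count was 15 with the stricter cell filter and 14 without the 5% deepest cells, both from 10 pairs. It was 8 with another draw, in which *Fabp7* had too few cells. The thinned share of *Fabp7* in PC5 was 0.328% and, in the other draw, 0.215%, so the scarce members are better read without thinning. No paired analysis was possible because each passage has 1 library and no result comes from a test. Members with few UMIs, *Aqp4* and *S100b* foremost, are limited by depth, and the 13 cells by their number.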
